A study of Triticum aestivum with 27 samples.

Results

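The 200 wheat genes described here were those whose expression peaked at 48 h of a sprouting treatment in spikes of all 3 varieties sampled, and they were chosen by that measured pattern. The score of a gene was computed from the deposited FPKM values (read counts corrected for the length of the gene and the depth of the library). For each variety it took log2(mean FPKM of 3 libraries + 1) at 48 h minus the larger of the values at 0 h and 96 h, and the smallest of the 3 differences was kept. The 200 genes with the highest score were taken out of 108061 identifiers of the reference form, in a table of 153699 identifiers in all. Every difference between 48 h and another time was therefore used by the choice and is given below as a description, with no test.

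Spikes of Triticum aestivum were cut at wax ripeness, soaked, and kept warm and in humid air for 0, 48 or 96 h, a treatment that brings on pre-harvest sprouting. Spikes of 0 h were frozen right after the soaking. The varieties were Baipimai, a white-grained variety resistant to sprouting, Shengsimai, a red-grained and highly resistant variety, and Zhoumai18, a white-grained and highly susceptible variety. Each of the 9 groups of variety and time held 3 spikes, each with its own library, so p-values measure the spread between spikes of a single variety and treatment run, and the 27 libraries gave 45590141 to 55765523 counts each. The numbers in the library names of Baipimai are those of another white-grained variety in the study's list of varieties, and the name of the labels, Baipimai, is kept for them.

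Pre-harvest sprouting is the germination of grains in the ear before harvest, and it is brought on by wet weather at ripeness. When a ripe grain takes up water, stored messengers are replaced by newly made ones, and a non-dormant embryo goes on to mobilise the reserves of the endosperm while a dormant one does not. Bread wheat carries the A, B and D genomes, so that most genes have closely similar copies, homoeologues, on corresponding chromosomes. A spike holds embryos, endosperm, seed coats, glumes and rachis, and in such bulk tissue fewer cells of a type and less RNA per cell cannot be told apart. Reads of near-identical copies can be split between them by the counting, so the level of a single copy is uncertain. The symbols printed below are those that the table gives, and product names and sequences were not used here, so no function is stated for single genes.

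The peaks were small for most of the genes. The score ran from 0.23 to 1.15 on the log2(FPKM + 1) scale, with a median of 0.29, which is a 1.22-fold difference in FPKM + 1 in the variety with the weakest peak. Only 2 genes reached a 2-fold score, and 15 reached a score of 0.5. The median peak was 0.43 in Baipimai, 0.33 in Shengsimai and 0.50 in Zhoumai18, and 13, 14 and 30 genes had a peak of at least 2-fold in these varieties in that order. Shengsimai set the score, as the variety with the weakest peak, for 106 genes, Baipimai for 58 and Zhoumai18 for 36.

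The limit of the choice was the score of its last gene, so the number that reached it in all 3 varieties is set by the choice. Among the 108061 identifiers, 17657 had a peak of that size in Baipimai, 3672 in Shengsimai and 9677 in Zhoumai18. Of these, 24070 did so in exactly 1 variety, 3168 in exactly 2 and the 200 members in all 3. A peak of any size in all 3 varieties was found for 4305 identifiers (3.98%), and the opposite shape, a 48 h level below both other times in all 3, for 970. At the limit score the opposite shape was found for 72 identifiers.

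Within single varieties the 48 h libraries stood apart from the rest for most members, which the choice by 48 h means favours. The same count was not made for other genes. The 3 libraries at 48 h all lay above the 6 libraries of the other times for 178 members in Baipimai, 165 in Shengsimai and 177 in Zhoumai18. This held in all 3 varieties for 131 members, in 2 for 59, in 1 for 9 and in none for 1. That last gene, TraesCS5D01G433800, ranked 162 by score and was named after its values were seen.

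The members were mostly genes of low to moderate expression. The median of their mean FPKM at 0, 48 and 96 h was 1.24, 3.97 and 2.71 in Baipimai. In Shengsimai it was 0.788, 4.07 and 2.66 FPKM at these times, and in Zhoumai18 it was 1.05, 3.41 and 1.61 FPKM. At 0 h, 87 members in Baipimai, 117 in Shengsimai and 99 in Zhoumai18 had a mean under 1 FPKM, and 5, 9 and 6 members had 0 counts over the 3 libraries of the variety. The plot of the members' levels over time shows this shape in each variety.

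**Figure D1:**
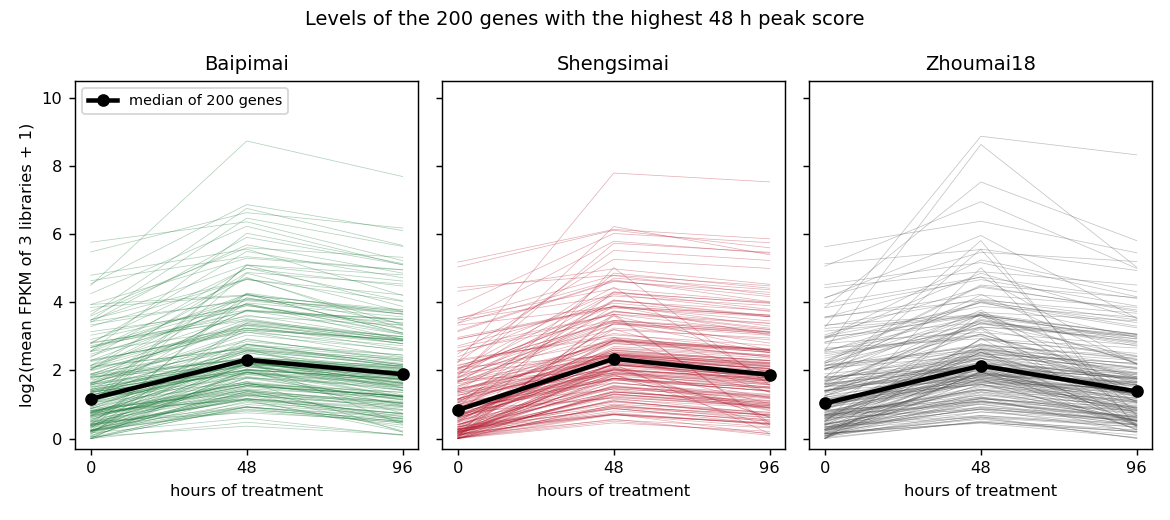
Levels of the 200 members at 0, 48 and 96 h in the 3 varieties, as log2(mean FPKM of 3 libraries + 1). Each thin line is a gene and the black line joins the medians over the genes, which correspond to 1.24, 3.97 and 2.71 FPKM in Baipimai, with the 96 h median of Zhoumai18 (1.61 FPKM) closest to its 0 h median (1.05 FPKM).

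The scaling of the libraries touches the choice itself. The 50 most abundant genes took 25.2 to 27.4% of the counts in the Shengsimai libraries of 0 h and 7.02 to 7.51% at 96 h in Zhoumai18, and FPKM makes no allowance for such a share. The TMM factors, which do, were 0.71 to 0.74 in Shengsimai at 0 h, 0.86 to 0.88 in Baipimai at 0 h and 0.93 to 0.98 in Zhoumai18 at 0 h, and they were 1.01 to 1.16 in every library of 48 and 96 h. On FPKM divided by these factors, 195 of the 200 genes kept a 48 h peak in all 3 varieties and 137 remained among the 200 highest scores. Peaks of any size in all 3 varieties numbered 2545 on that scale, against 4305 on FPKM. On TPM, which brings FPKM to an equal total in each library, they numbered 5503. The opposite shape was not counted on these scales. The tests below use TMM-scaled counts, so a difference between 96 h and 0 h is lower there than in FPKM, by 0.24 in Baipimai, 0.52 in Shengsimai and 0.26 in Zhoumai18 on the log2 scale.

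The gene with the highest score was TraesCS1D01G230900 (LOC109733660). In Baipimai it had 2.30, 1.71 and 2.40 FPKM at 0 h, 17.6, 20.4 and 15.8 FPKM at 48 h and 7.34, 7.24 and 8.06 FPKM at 96 h. In Shengsimai it had 0.208, 0 and 0 FPKM at 0 h, 3.16, 3.97 and 3.60 FPKM at 48 h and 0, 0.246 and 0.0684 FPKM at 96 h. In Zhoumai18 it had 1.31, 2.59 and 3.03 FPKM at 0 h, 7.33, 7.89 and 9.50 FPKM at 48 h and 1.25, 0.526 and 0.622 FPKM at 96 h. The 48 h libraries were thus apart from all others in each variety, and the libraries of 96 h lay above those of 0 h in Baipimai, near 0 at both times in Shengsimai and below them in Zhoumai18. The copy on 1A with the same symbol, TraesCS1A01G231200, was no member, because its mean in Baipimai was 14.5 FPKM at 96 h and 11.2 FPKM at 48 h.

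TraesCS5A01G061200 and TraesCS5D01G072700, ranked 2 and 6, share the symbol LOC109736983 and had the same shape. TraesCS5A01G061200 averaged 4.87, 17.9 and 7.59 FPKM at 0, 48 and 96 h in Baipimai, 1.81, 11.2 and 5.06 FPKM in Shengsimai and 2.53, 12.7 and 1.54 FPKM in Zhoumai18. TraesCS5D01G072700 averaged 2.05, 12.6 and 7.32 FPKM at these times in Baipimai, 0.28, 8.25 and 2.83 FPKM in Shengsimai and 1.00, 8.72 and 0.29 FPKM in Zhoumai18. Both copies ended above the 0 h level in both resistant varieties and below it in Zhoumai18. For the 5A copy the difference of 96 h from 0 h was 0.39 ± 0.14 (log2, SE) in Baipimai, 0.94 ± 0.17 in Shengsimai and -0.97 ± 0.18 in Zhoumai18, with edgeR adjusted p-values of 0.0191, 1.37e-05 and 2.16e-05. For the 5D copy it was 1.57 ± 0.19, 2.68 ± 0.28 and -1.93 ± 0.31 in the same order, with edgeR adjusted p-values of 2.07e-08, 1.27e-09 and 2.22e-06.

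TraesCS7D01G088500 and TraesCS4A01G392500 (LOC109743964), ranked 3 and 5, were close to 0 in Shengsimai at 0 h. TraesCS4A01G392500 had 23.2, 22.6 and 21.0 FPKM at 0 h in Baipimai, 121, 123 and 104 FPKM at 48 h and 69.3, 74.7 and 59.9 FPKM at 96 h. In Shengsimai the same gene had 0.0906, 0 and 0 FPKM at 0 h, 34.1, 31.6 and 28.7 FPKM at 48 h and 1.10, 2.08 and 2.65 FPKM at 96 h. In Zhoumai18 it had 4.13, 4.20 and 6.80 FPKM at 0 h, 428, 398 and 365 FPKM at 48 h and 31.3, 32.7 and 31.1 FPKM at 96 h. The 3 varieties did not overlap at 48 h, where Zhoumai18 was highest, and at 96 h Baipimai was highest.

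TraesCS7D01G088500 averaged 11.1, 50.6 and 28.0 FPKM at 0, 48 and 96 h in Baipimai, 0.05, 11.3 and 0.37 FPKM in Shengsimai and 2.46, 55.3 and 0.23 FPKM in Zhoumai18. Its libraries of Baipimai and Zhoumai18 overlapped at 48 h, at 46.6 to 55.1 and 54.2 to 56.1 FPKM, and no longer did so at 96 h. At 96 h the 3 libraries had 28.8, 32.7 and 22.5 FPKM in Baipimai, 0.476, 0.345 and 0.303 FPKM in Shengsimai and 0.245, 0.183 and 0.271 FPKM in Zhoumai18.

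The other genes of the 10 highest scores had a mean at 96 h above that of 0 h in every variety. TraesCS4D01G021400 (LOC109734874), ranked 4, averaged 4.22, 31.1 and 15.5 FPKM at 0, 48 and 96 h in Baipimai, 2.54, 73.9 and 41.1 FPKM in Shengsimai and 6.63, 27.9 and 10.6 FPKM in Zhoumai18. At 48 h its libraries in Shengsimai, at 72.5 to 76.0 FPKM, lay above all others. TraesCS7A01G252000, TraesCS4B01G148300 and TraesCS4A01G442600, ranked 7, 9 and 10, kept between 41.8% and 60.2% of the rise at 96 h in every variety. TraesCS3B01G602400, ranked 8, was the only gene of the 10 with 0 counts over a whole group, Zhoumai18 at 0 h. At that time it had 0.310, 0.286 and 0.279 FPKM in Baipimai and 1.00, 1.05 and 1.14 FPKM in Shengsimai.

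**Figure D2:**
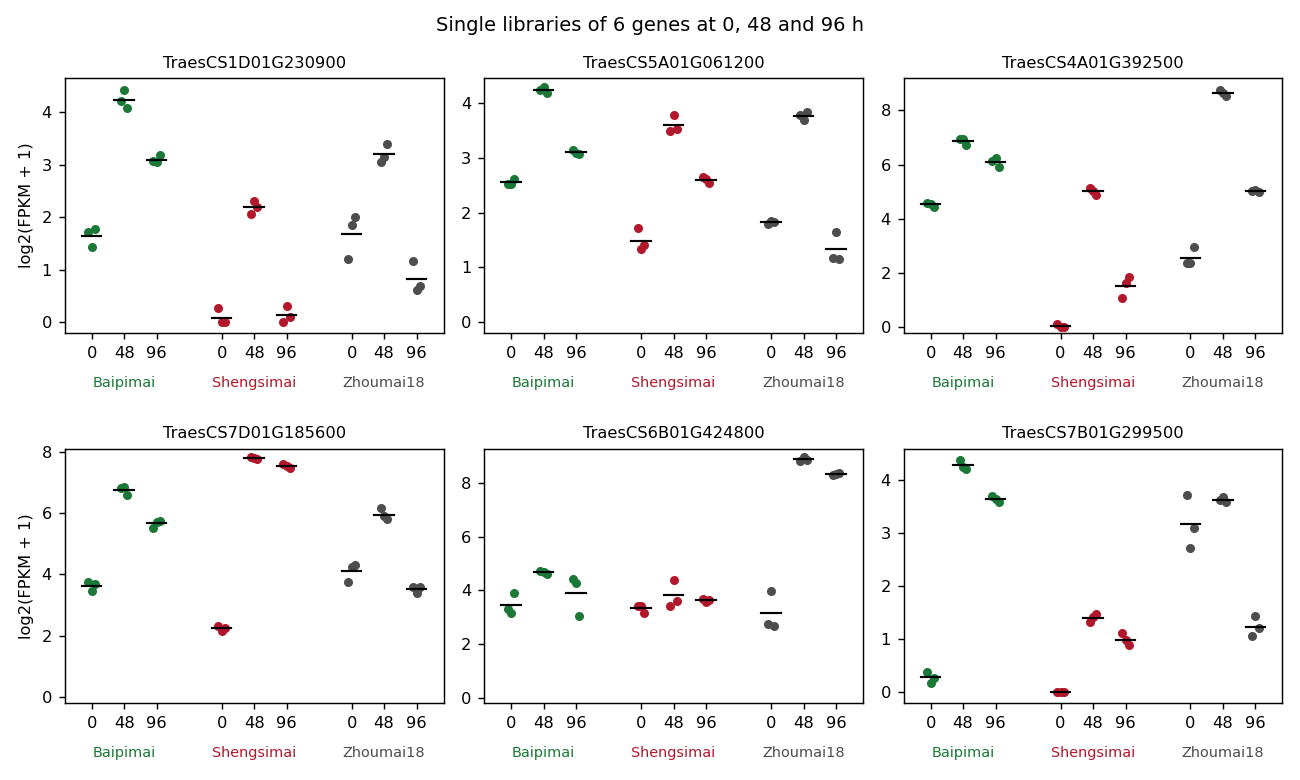
Single libraries of 6 members at 0, 48 and 96 h, grouped by variety, as log2(FPKM + 1); points are libraries and bars are means of the 3 log2 values. TraesCS6B01G424800 lies at 449 to 498 FPKM at 48 h in Zhoumai18, and TraesCS7B01G299500 starts near 0 FPKM in Baipimai and Shengsimai and at 5.60 to 12.1 FPKM in Zhoumai18.

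The 5 members with the highest mean at 48 h were TraesCS5A01G535400, TraesCS4A01G392500, TraesCS6B01G424800, TraesCS7D01G185600 and TraesCS1D01G231600. TraesCS5A01G535400 had 464, 397 and 418 FPKM at 48 h in Baipimai, 72.2, 67.3 and 66.0 FPKM in Shengsimai and 198, 196 and 160 FPKM in Zhoumai18. At 0 h it was between 10.7 and 36.1 FPKM in the 9 libraries of all varieties, and at 48 h the varieties did not overlap. TraesCS1D01G231600 was the most even of the 5, with 93.0 to 102 FPKM at 48 h in Baipimai, 67.5 to 70.9 FPKM in Shengsimai and 81.6 to 83.8 FPKM in Zhoumai18.

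TraesCS6B01G424800 (LOC102577734) stayed between 7.23 and 25.2 FPKM over the 9 libraries of Baipimai. In Shengsimai it had 9.72, 9.59 and 7.86 FPKM at 0 h, 9.74, 20.1 and 11.1 FPKM at 48 h and 11.7, 10.9 and 11.3 FPKM at 96 h, so its 48 h libraries overlapped those of 96 h. In Zhoumai18 it had 5.75, 14.8 and 5.39 FPKM at 0 h, 449, 498 and 462 FPKM at 48 h and 314, 321 and 328 FPKM at 96 h. Without replicate 2 of Shengsimai at 48 h, the mean there was 10.4 FPKM, below the 11.3 FPKM of 96 h, so the place of this gene among the members rests on that library.

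At the limit of the choice the values were close together. The last 3 genes taken, TraesCS6A01G239800, TraesCS1B01G400500 and TraesCS2D01G295400, had scores of 0.2333, 0.2329 and 0.2328. The next 3, TraesCS3A01G465600 with 0.2323, TraesCS7A01G068900 with 0.2321 and TraesCS5A01G352400 with 0.2307, were left out. TraesCS2D01G295400 averaged 0.669, 4.15 and 3.38 FPKM at 0, 48 and 96 h in Baipimai, and TraesCS3A01G465600, just outside, averaged 0.160, 1.91 and 0.968 FPKM.

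The members were spread over all 21 chromosomes, with 4 to 15 on each. The A genome held 69 members (34.5%), the B genome 59 (29.5%) and the D genome 72 (36%), and among all 108061 identifiers of the reference form the shares were 33.6%, 34.0% and 32.4%. A symbol was given for 73 members (36.5%), compared with 37.3% of the same identifiers and 45.4% of those among them that were tested.

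Some of the members shared a symbol with a member on a corresponding chromosome of another genome. Of the 66 symbols among the members, 7 were held by 2 members each, which made 14 members, and in all 7 pairs the copies were on corresponding chromosomes. Among them TraesCS3B01G000600 and TraesCS3D01G010500 (LOC109757301) averaged 0.13 and 0.09 FPKM at 0 h, 5.83 and 8.97 FPKM at 48 h and 3.26 and 5.21 FPKM at 96 h in Baipimai. TraesCS6B01G225700 and TraesCS6D01G190000 (LOC109786694) were the pair with the highest level at 0 h in Baipimai, with 9.82 and 7.81 FPKM, and had 15.6 and 12.6 FPKM at 48 h and 11.6 and 9.59 FPKM at 96 h there. The other pairs were on 3A and 3D (LOC109756768), 4A and 4D (LOC109757390), 4B and 4D (LOC109772151), 5A and 5D (LOC109770108) and the pair LOC109736983 described above.

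Some genes with the symbol of a member missed the choice and had a peak too. A further 67 identifiers carried the symbol of a member. Of these, 49 lay on a chromosome with the same number, some of them on the member's own chromosome, and 39 of the 49 were tested. Those on chromosomes with another number were left out. Examples are the genes on 7A and 7D with the symbol of TraesCS4A01G392500. A 48 h peak of any size in all 3 varieties was found for 14 of the 39 (35.9%). It was found for 5.38% of all tested identifiers of the reference form that were no members, these 39 included. The median score of the 39 was -0.09, and that of all tested identifiers of the reference form was -0.65. Taken by variety, 69.2% of the 39 peaked in Baipimai, 64.1% in Shengsimai and 71.8% in Zhoumai18. Of all tested identifiers that were no members, 48.1%, 30.7% and 26.7% did so.

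Members also lay next to each other. Taking identifiers at most 300 apart, where direct neighbours differ by 100, 11 members formed 5 runs. These were TraesCS5A01G194200 and TraesCS5A01G194300, TraesCS6A01G322200 and TraesCS6A01G322300, TraesCS7A01G453700 and TraesCS7A01G454000, TraesCS7B01G251900 and TraesCS7B01G252000, and the genes TraesCS7D01G088100, TraesCS7D01G088400 and TraesCS7D01G088500. In the run on 7B, TraesCS7B01G251900 averaged 1.74, 3.00 and 2.39 FPKM at 0, 48 and 96 h in Baipimai and TraesCS7B01G252000 averaged 14.3, 17.6 and 12.2 FPKM.

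The run on 7D lay within a longer stretch of genes with a related pattern, which was picked out after its values were seen. From TraesCS7D01G087600 to TraesCS7D01G088800 there were 13 identifiers, 3 of them members. All 10 others had their highest mean at 96 h in Baipimai, which by itself barred them from the choice. Of these, 9 peaked at 48 h in Shengsimai and 10 in Zhoumai18. The exception in Shengsimai, TraesCS7D01G087900, had 0 FPKM there at every time. It had only 80 counts over all 27 libraries and was not tested. For example, TraesCS7D01G087800 averaged 15.9, 28.8 and 133 FPKM at 0, 48 and 96 h in Baipimai, 0.08, 12 and 0.11 FPKM in Shengsimai and 5.18, 179 and 0.41 FPKM in Zhoumai18. The 13 genes were all lower at 48 h in Shengsimai than in Zhoumai18, by their means and with no test, and all 13 had a mean under 1 FPKM in Zhoumai18 at 96 h. TraesCS7D01G088000, TraesCS7D01G088600 and TraesCS7D01G087900 in this stretch carry the symbol LOC109743964, which is also that of the member TraesCS4A01G392500.

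**Figure D3:**
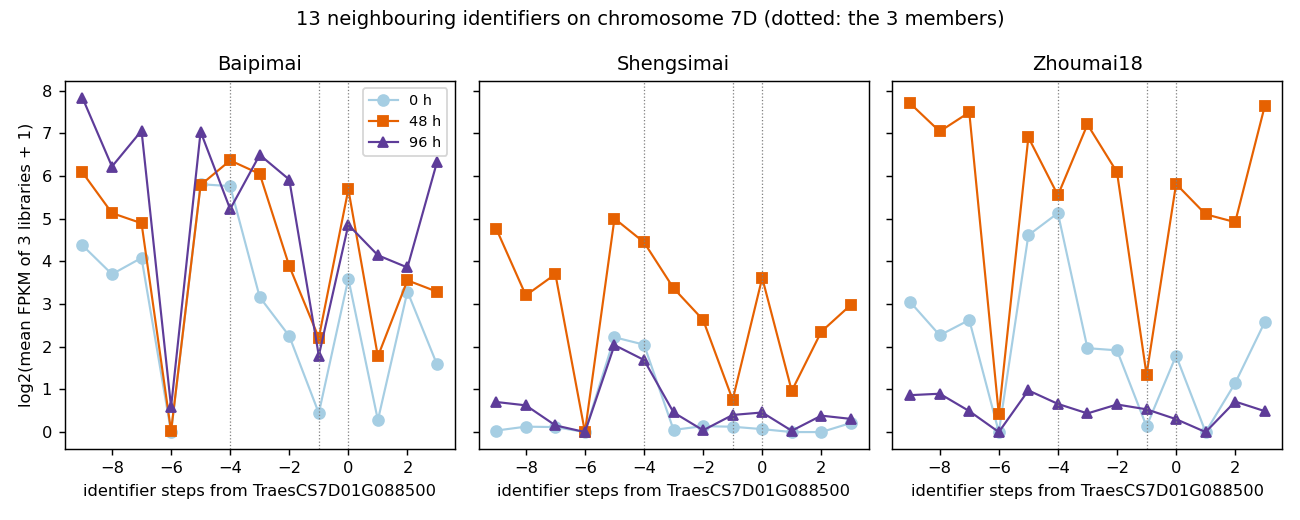
Mean level of 13 neighbouring identifiers on chromosome 7D, as log2(mean FPKM of 3 libraries + 1), against the number of identifier steps from TraesCS7D01G088500, for 0, 48 and 96 h in each variety; dotted lines mark the 3 members. In Zhoumai18 the 48 h line lies above both others and the 96 h line stays under 1 FPKM throughout, and in Baipimai the 96 h line is highest for the 10 genes that are no members.

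By 96 h the members had come down furthest in Zhoumai18, as a description of levels that the choice had used. The share below was not computed for other genes, so it is not shown to be particular to the members. Of the rise in mean FPKM between 0 and 48 h, the median share still present at 96 h was 48.6% in Baipimai, 61.8% in Shengsimai and 21.6% in Zhoumai18. The quartiles were 31.7% and 59.8% in Baipimai, 46.4% and 70.3% in Shengsimai and -9.01% and 47.9% in Zhoumai18, where a negative share is a level below that of 0 h. The 96 h mean lay at or below the 0 h mean for 15 members in Baipimai, 6 in Shengsimai and 62 in Zhoumai18. Baipimai had the least of the rise left for 49 of the 200 members, Shengsimai for 19 and Zhoumai18 for 132. On FPKM divided by the TMM factors, an alternative chosen after the data were seen, the medians were 54.6%, 56.2% and 15.7% in the order of varieties above, and Zhoumai18 had the least left for 131 members.

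**Figure D4:**
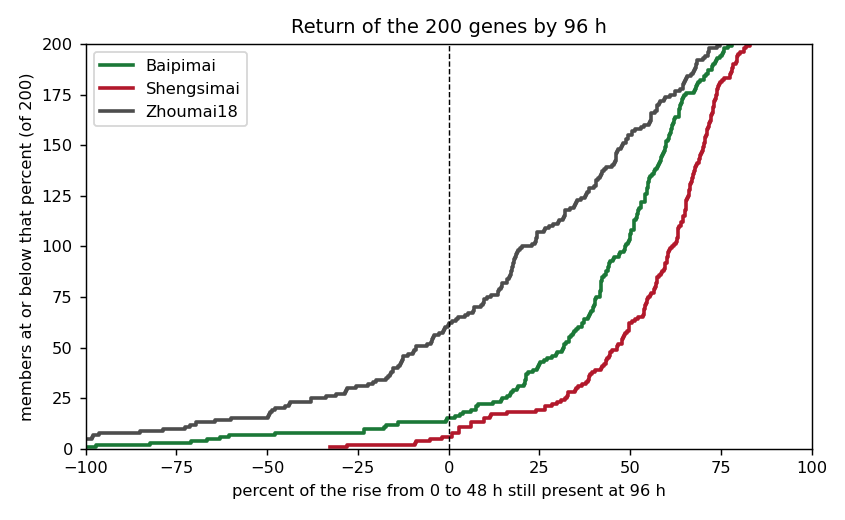
Number of the 200 members (y axis) whose share of the rise between 0 and 48 h still present at 96 h was at or below the value on the x axis, in percent, for each variety; the dashed line is a full return to the 0 h mean. The curve of Zhoumai18 lies to the left, where 15 members in Baipimai, 6 in Shengsimai and 62 in Zhoumai18 are at or below 0, and 1 member of Baipimai and 5 of Zhoumai18 lie beyond the left edge.

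The difference of 96 h from 0 h was no contrast of the choice, although both levels entered it. It was tested with edgeR's quasi-likelihood test on all 68658 genes with 1 FPKM or more in 3 or more libraries, and a gene was called at an adjusted p under 0.05. Of the 200 members, 192 passed that limit, helped by the 48 h level that they were chosen for, and 8 were not tested. Below, percents in brackets after counts of called members are shares of these 192. The tested genes as a whole were not chosen by a peak, so their shares are no matched background. Counts of members called here and in the combinations of varieties below are therefore not free of the choice. In Baipimai 134 members were higher and 12 lower at 96 h than at 0 h, where 39.4% of all tested genes were called higher and 31.4% lower. In Shengsimai 142 were higher and 9 lower, against 39.5% and 33.2% of all tested genes. In Zhoumai18 93 were higher and 50 lower, against 44.4% and 37.8% of all tested genes.

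As shares of the 192 members, those called higher were 69.8% in Baipimai, 74.0% in Shengsimai and 48.4% in Zhoumai18. Those called lower were 6.25%, 4.69% and 26.0% in this order. In Zhoumai18 the share called higher was near the 44.4% of all tested genes, and the share called lower was under their 37.8%. The members' median log2 difference of 96 h from 0 h was 0.87 in Baipimai, 1.21 in Shengsimai and 0.41 in Zhoumai18, and that of all tested genes was 0.11, 0.08 and 0.12. Setting the genes with 0 counts in a group at the bound of 3 counts over the group left these medians as they were. The differences were often under 2-fold, and a 2-fold change was required as well in a further count. In Baipimai 81 members were then higher and 5 lower, against 24.9% and 14.6% of all tested genes. In Shengsimai 105 were higher and 2 lower, against 27.2% and 16.8%, and in Zhoumai18 61 were higher and 23 lower, against 32.0% and 23.7% of all tested genes.

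Members differed in how the varieties combined. Higher at 96 h than at 0 h in all 3 varieties were 72 members, a pattern that 17.7% of all tested genes had. A further 43 were called higher in both resistant varieties but not in Zhoumai18, against 9.04% of all tested genes, and 23 of these were called lower in Zhoumai18, against 4.2%. There were 41 members called lower in Zhoumai18 and in no other variety, these 23 included, and 5 called higher in Zhoumai18 and in no other, against 11.7% and 13.7% of all tested genes. The 2 members called lower in all 3 varieties and the 11 called in none compare with 16.6% and 2.43% of all tested genes.

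The genes named for a rise at 96 h in Baipimai, which were called, did not overlap between the times and reached a mean of 1 FPKM, had levels near 0 at 0 h. TraesCS4D01G334100 had 28, 22 and 30 counts at 96 h in Baipimai, against 0 counts in all 3 libraries of 0 h, at least 23.5-fold higher when the group at 0 is set to a floor of 3 counts in all (edgeR adjusted p = 3.07e-05). TraesCS3B01G195400 had 1.89 to 2.19 FPKM at 96 h in Baipimai and at most 0.0336 FPKM at 0 h, a log2 difference of 6.61 ± 0.48 (edgeR adjusted p = 1.37e-12). Without replicate 1 of Baipimai at 0 h this difference was 9.48, a fitted value that depends on the prior count because the libraries left at 0 h had 0 counts. For this gene, the 48 h libraries of Baipimai, with 3.09, 1.93 and 3.40 FPKM, overlapped those of 96 h.

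In Shengsimai TraesCS7D01G185600 (LOC109764392) had 193, 184 and 178 FPKM at 96 h, against 3.94, 3.47 and 3.79 FPKM at 0 h, a log2 difference of 5.09 ± 0.14 (edgeR adjusted p = 1.15e-21). It had also been 218 to 226 FPKM at 48 h, so it kept 83.1% of its rise. In Zhoumai18 this gene was at 11.1, 9.58 and 11.1 FPKM at 96 h and at 12.6, 18.0 and 18.8 FPKM at 0 h, a log2 difference of -0.89 ± 0.13 (edgeR adjusted p = 2.70e-07). TraesCS4A01G392500, described above, was named by the same rule for its rise in Shengsimai, at 5.06 ± 0.62 on the log2 scale (edgeR adjusted p = 3.74e-08), and at 8.65 without replicate 1 of Shengsimai at 0 h, where the libraries left had 0 counts as well. Members with a mean under 1 FPKM at both times had higher fitted differences there, up to 9.39 for a gene with 0 counts at 0 h, and were left out by the rule.

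Zhoumai18 held members that moved far in either direction. TraesCS3B01G602400 had 701 counts over the 3 libraries at 96 h, against 0 at 0 h, at least 180-fold higher, and TraesCS7A01G545300 had 140 at 96 h, against 0 at 0 h, at least 36.0-fold higher (edgeR adjusted p = 5.09e-19 and 1.41e-11). TraesCS7D01G088100 fell in Zhoumai18 to 0.530, 0.549 and 0.662 FPKM at 96 h, against 24.7, 40.9 and 36.6 FPKM at 0 h, a log2 difference of -6.06 ± 0.23 (edgeR adjusted p = 3.25e-19). Its neighbour TraesCS7D01G088500 fell as well, by 3.59 on the log2 scale (SE 0.29, edgeR adjusted p = 5.53e-12). TraesCS7D01G088100 was also lower at 96 h than at 0 h in Baipimai, at -0.80 ± 0.14, and in Shengsimai, at -1.02 ± 0.24, with edgeR adjusted p-values of 1.54e-05 and 0.000404.

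Both genes named for a fall in Baipimai were higher at 96 h in Shengsimai. This combination was called for 6 of the 192 tested members, a share near the 2.92% of all tested genes. TraesCS2A01G375500 had 0.331, 0.343 and 0.316 FPKM at 96 h in Baipimai, against 1.23, 1.85 and 2.07 FPKM at 0 h, a log2 difference of -2.57 ± 0.37 (edgeR adjusted p = 6.17e-07). The same gene had 5.18, 5.19 and 3.81 FPKM at 96 h in Shengsimai, against 0.326, 0 and 0.125 FPKM at 0 h, at 4.34 ± 0.39 (edgeR adjusted p = 9.11e-11). TraesCS3A01G413600 differed between 96 h and 0 h by -1.13 ± 0.15 in Baipimai and by 2.32 ± 0.18 in Shengsimai (edgeR adjusted p = 2.68e-07 and 2.75e-12).

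Whether the change between 0 and 96 h differed between varieties was tested by an interaction term, on levels that had entered the choice. It was higher in Baipimai than in Zhoumai18 for 82 members and lower for 25, against 34.3% and 32.5% of all tested genes. It was higher in Shengsimai than in Zhoumai18 for 106 members (55.2%) and lower for 26 (13.5%), against 35.1% and 30.1% of all tested genes. The members' median interaction was 0.40 for Baipimai and 0.88 for Shengsimai on the log2 scale, and that of all tested genes was -0.00 and 0.06. Both comparisons use the same Zhoumai18 libraries. A change higher in both resistant varieties was called for 66 members, a pattern of 25.1% of all tested genes, and a change lower in both for 15, against 21.9% of all tested genes.

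TraesCS7D01G185600 was among the genes whose change was higher in both, by 2.78 ± 0.18 in Baipimai and 5.98 ± 0.19 in Shengsimai (log2, SE, edgeR adjusted p = 7.82e-14 and 2.26e-20). TraesCS7B01G299500 was named for a higher change in both as well. In Baipimai it had 12, 11.5 and 11.0 FPKM at 96 h, against 0.311, 0.138 and 0.212 FPKM at 0 h, and in Shengsimai 247 counts over the 3 libraries at 96 h, against 0 at 0 h. In Zhoumai18 it had 1.09, 1.72 and 1.30 FPKM at 96 h, against 12.1, 5.60 and 7.52 FPKM at 0 h, so the level was higher at 96 h in both resistant varieties and lower in Zhoumai18, with no overlap of the libraries. TraesCS6A01G379200 had 6.38, 7.0 and 5.33 FPKM at 96 h in Baipimai, 12.1, 12.9 and 13.6 FPKM in Shengsimai and 0 counts in all 3 libraries of Zhoumai18.

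The level at 48 h, the time of the peak, was compared between varieties. The choice set no variety against another, but it used the levels of each at every time. Shares of members called here and in the later comparisons of varieties are therefore not free of the choice. At 48 h Baipimai was higher than Zhoumai18 for 69 members (35.9%) and lower for 18 (9.4%), against 28.6% and 25.0% of all tested genes. A further 105 members were not called. Shengsimai was higher than Zhoumai18 for 95 (49.5%) and lower for 38 (19.8%), against 29.1% and 33.3% of all tested genes. The members' median log2 difference was 0.21 for Baipimai and 0.39 for Shengsimai over Zhoumai18, and that of all tested genes was 0.04 and -0.02. With a 2-fold change required as well, 27 members were higher and 4 lower in Baipimai, against 12.9% and 10.7% of all tested genes, and 32 were higher and 27 lower in Shengsimai, against 10.7% and 18.4%.

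Several members stood far apart at 48 h. TraesCS6B01G424800, with 23.6 to 25.2 FPKM in Baipimai and 9.74 to 20.1 FPKM in Shengsimai, against 449 to 498 FPKM in Zhoumai18, differed from Zhoumai18 by -4.29 ± 0.28 in Baipimai and by -4.99 ± 0.29 in Shengsimai (log2, SE, edgeR adjusted p = 1.25e-13 and 9.55e-15). TraesCS7A01G019400 had 1.95, 2.08 and 2.35 FPKM in Baipimai, against 11.4, 12.2 and 11.5 FPKM in Zhoumai18, at -2.49 ± 0.13 (edgeR adjusted p = 5.88e-16). TraesCS4A01G392500 was lower in Shengsimai than in Zhoumai18, at -3.54 ± 0.14 (edgeR adjusted p = 2.20e-18).

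In the other direction, TraesCS6A01G379200 had 7.64, 7.55 and 12 FPKM at 48 h in Baipimai and 18.6, 17.4 and 20.6 FPKM in Shengsimai, against 0.638, 0.588 and 0.448 FPKM in Zhoumai18. The log2 difference from Zhoumai18 was 3.93 ± 0.30 for Baipimai and 5.14 ± 0.30 for Shengsimai (edgeR adjusted p = 2.16e-11 and 4.20e-14). TraesCS1B01G056700 (LOC109741532) was higher in Baipimai than in Zhoumai18 by 2.59 ± 0.16, and TraesCS2A01G375500 was higher in Shengsimai than in Zhoumai18 by 2.96 ± 0.28 (edgeR adjusted p = 3.97e-14 and 3.05e-10). None of these genes overlapped between the varieties at that time.

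**Figure D5:**
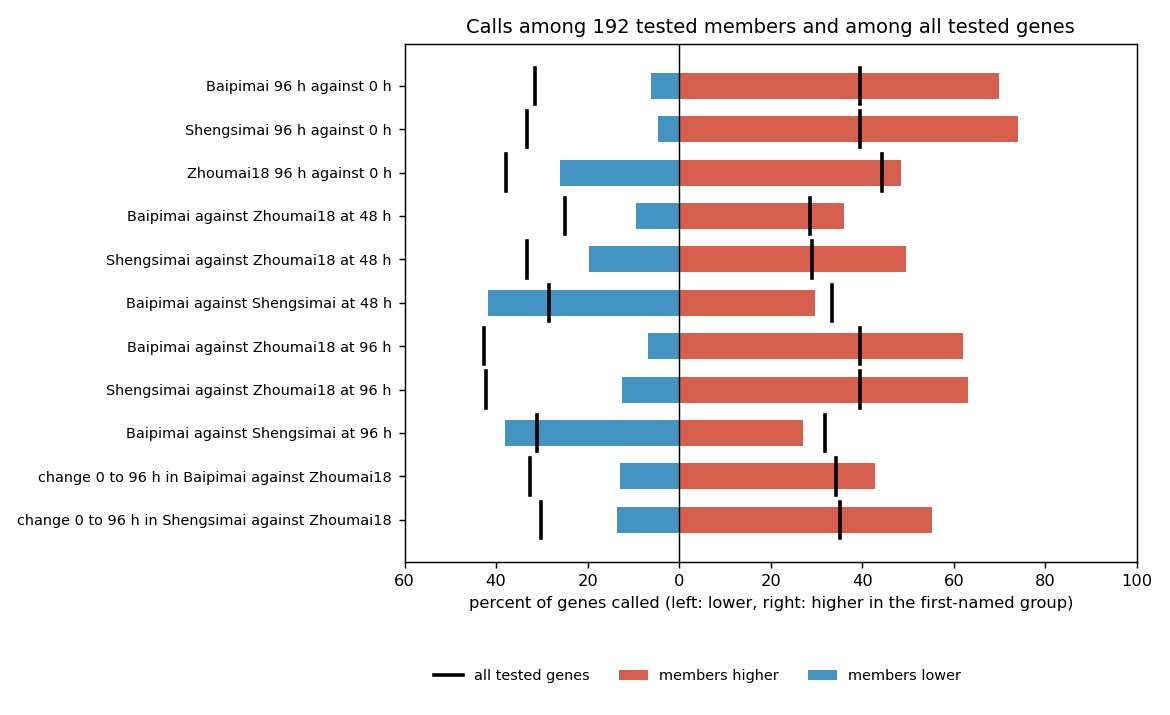
Percent of the 192 tested members called higher (right) or lower (left) in the first-named group of each comparison, as bars, with the percent of all 68658 tested genes called in that direction as black lines. The bars for higher calls reach past the line in Baipimai and Shengsimai at 96 h against 0 h (69.8% and 74.0% of members, with 39.4% and 39.5% of all tested genes). They lie near it in Zhoumai18 (48.4% and 44.4%), where the bar for lower calls stays short of its line (26.0% and 37.8%). Levels at all times entered the choice of the members, so their shares are not free of it.

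The same comparisons were made at 96 h. Baipimai was higher than Zhoumai18 for 119 members (62.0%) and lower for 13 (6.8%), against 39.6% and 42.7% of all tested genes. Shengsimai was higher than Zhoumai18 for 121 (63.0%) and lower for 24 (12.5%), against 39.5% and 42.2% of all tested genes. The median log2 difference of the members was 0.52 for Baipimai and 0.72 for Shengsimai, and that of all tested genes was -0.05 and -0.04. With a 2-fold change required as well, 67 members were higher and 6 lower in Baipimai, against 24.2% and 29.9% of all tested genes, and 73 were higher and 18 lower in Shengsimai, against 23.2% and 29.1%.

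TraesCS6A01G379200, at 0 counts in Zhoumai18 at 96 h, was at least 202-fold higher in Baipimai and at least 404-fold higher in Shengsimai (edgeR adjusted p = 1.18e-13 and 2.70e-15). TraesCS7D01G088500 was higher in Baipimai than in Zhoumai18 by 6.96 ± 0.23, and TraesCS2A01G375500 was higher in Shengsimai than in Zhoumai18 by 5.17 ± 0.39 (log2, SE, edgeR adjusted p = 1.01e-20 and 1.81e-12). For TraesCS2A01G375500 this difference was 5.83 without replicate 1 of Zhoumai18 at 96 h. The members named for a level below Zhoumai18 were TraesCS6B01G424800, at -4.25 ± 0.28 in Baipimai and -4.73 ± 0.29 in Shengsimai (edgeR adjusted p = 7.72e-14 and 1.77e-14), TraesCS3D01G415800 in Baipimai and TraesCS4A01G392500 in Shengsimai. TraesCS3D01G415800 (LOC109778357) had 0.0902, 0.107 and 0.218 FPKM in Baipimai, against 0.902, 1.23 and 1.34 FPKM in Zhoumai18. TraesCS4A01G392500 had 1.10, 2.08 and 2.65 FPKM in Shengsimai, against 31.3, 32.7 and 31.1 FPKM in Zhoumai18.

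Between the resistant varieties the calls went both ways. At 48 h Baipimai was higher than Shengsimai for 57 members (29.7%) and lower for 80 (41.7%), against 33.4% and 28.4% of all tested genes. At 96 h it was higher for 52 (27.1%) and lower for 73 (38.0%), against 31.8% and 31.0% of all tested genes. The order of these counts turned when a 2-fold change was required as well. It was then 34 higher and 18 lower at 48 h, against 18.3% and 7.6% of all tested genes. At 96 h it was 36 higher and 23 lower, against 16.0% and 12.5%. All tested genes thus also had more higher than lower calls under this requirement. The turned order does not by itself set the members apart. The members' median log2 difference was -0.15 at 48 h and -0.14 at 96 h, and that of all tested genes was 0.03 and 0.00.

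The genes named for these differences included members already described. At 48 h TraesCS5B01G511500 had 29.8, 23.9 and 30.1 FPKM in Baipimai, against 1.75, 1.93 and 1.54 FPKM in Shengsimai, at 3.84 ± 0.14 (log2, SE, edgeR adjusted p = 6.45e-19). TraesCS7B01G299500 had 19.7, 18.0 and 17.3 FPKM in Baipimai, against 1.5, 1.69 and 1.78 FPKM in Shengsimai, at 3.31 ± 0.20 (edgeR adjusted p = 1.65e-13). TraesCS3B01G602400 was lower in Baipimai, at -2.03 ± 0.10, and so was TraesCS5D01G114800 (LOC109771006), at -1.76 ± 0.47 (edgeR adjusted p = 1.38e-15 and 0.00240).

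TraesCS5D01G114800 was a weakly expressed member, with 0.441, 0.459 and 0.642 FPKM at 48 h in Baipimai and 0.939, 1.28 and 2.57 FPKM in Shengsimai. At 96 h TraesCS7D01G088500 and TraesCS1D01G230900 were higher in Baipimai than in Shengsimai, at 6.20 ± 0.21 and 6.15 ± 0.47 (edgeR adjusted p = 1.42e-19 and 4.17e-12). For TraesCS1D01G230900 it was 7.64 without replicate 2 of Shengsimai at 96 h. TraesCS2A01G375500 and TraesCS3B01G455600 were lower in Baipimai, at -3.74 ± 0.35 and -3.10 ± 0.24 (edgeR adjusted p = 2.61e-10 and 4.56e-12). TraesCS3B01G455600 had 0.149, 0.167 and 0.128 FPKM in Baipimai, against 1.37, 1.12 and 1.54 FPKM in Shengsimai, with no overlap.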

How the data were processed

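RNA of 27 wheat spikes was sequenced as polyadenylated libraries, and samples were grouped by the variety and time in their labels. The authors deposited unnormalized counts and FPKM values of each gene in a single table, in which 1 malformed line was left out and 0 value columns belonged to no sample. The aligner, the counter and the genome build are not given in the sources used here, nor is strand-aware counting. Columns of annotation were used only for the symbol. Members and gene lists were chosen with earlier results of these data known.

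Counts were scaled by TMM, and a single fit of 9 group means in edgeR 4.0.16 (R 4.3.3) gave the quasi-likelihood tests. The 68658 genes with at least 1 FPKM in 3 or more libraries were tested. Benjamini-Hochberg adjustment ran over all of them in each comparison, with a threshold of 0.05. The standard errors are those the test statistic implies. The test was tried on simulated data before use. No pair of replicates differed by less than the sampling noise (chi-square per degree of freedom of 2.84 to 11.5). Counting floors are 3 counts over a group, on TMM-scaled library sizes, and cover counting error only.

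The genes named are the 10 with the highest score, the 3 on each side of the limit and the 5 with the highest mean at 48 h. For each comparison, up to 2 called members with the largest rise and 2 with the largest fall were named as well. Their libraries did not overlap and the higher mean was 1 FPKM or more. For the interaction term only the limit on the mean was applied. Planned lists by product name, a check of tissue markers and a search of promoters were not run, because product names and sequences were not used here. Alternatives were DESeq2 1.42.0, RLE size factors, no filter, a replicate block, a fit of only the compared groups, a 2-fold minimum, other scales for the score, and leaving out each library in turn. Replicate numbers did not pair the libraries, since the deviations of same-numbered libraries correlated between -0.05 and 0.11, and in 0 of 9 comparisons were all over 0.1.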

Additional observations from a re-analysis of the deposited data

Results flagged for a closer look

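The change between 0 and 96 h differed between varieties for 107 members in Baipimai against Zhoumai18 and for 132 in Shengsimai against Zhoumai18, by the interaction term of edgeR's quasi-likelihood test. Such calls were common among all tested genes, at 34.3% higher and 32.5% lower for Baipimai and 35.1% and 30.1% for Shengsimai. The totals of 107 and 132 of the 192 tested members therefore do not by themselves set the members apart. By direction, 82 members were called higher and 25 lower for Baipimai, and 106 higher and 26 lower for Shengsimai. The members named for the largest such differences had a fitted log2 value that depends on the prior count where a group is at 0 counts, so the counts are given beside it. TraesCS7A01G545300 had 140 counts in Zhoumai18 at 96 h, against 0 at 0 h, and its interaction was -8.58 for Baipimai and -5.84 for Shengsimai. TraesCS3B01G602400 had 701 counts in Zhoumai18 at 96 h, against 0 at 0 h, and its interaction was -8.05 for Baipimai and -8.43 for Shengsimai.

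TraesCS4D01G334100 had 80 counts in Baipimai at 96 h, against 0 at 0 h, and its interaction was 8.50 for Baipimai, with 9.11 without replicate 3 of Zhoumai18 at 0 h and 9.40 without replicate 1 of Zhoumai18 at 96 h. TraesCS7B01G299500 had an interaction of 8.31 for Baipimai, with counts in all groups concerned, and 12.26 for Shengsimai, which had 247 counts at 96 h, against 0 at 0 h. TraesCS6A01G379200 had 0 counts in Zhoumai18 at 96 h, against 16 at 0 h, and its interaction was 9.24 for Shengsimai, with 8.62 without replicate 1 of Zhoumai18 at 0 h.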

How the results depend on the processing

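The counts of members called kept within 1.5 times their value under DESeq2, RLE size factors, no filter on low counts, a fit of the compared groups alone and the replicate block, and so did 166 alternatives of counts in all. With the replicate block, the calls of 96 h against 0 h were 146 in Baipimai, 151 in Shengsimai and 144 in Zhoumai18. Without single libraries the calls were 137 to 142, 146 to 150 and 131 to 141 calls in the same order. The 42 results of named genes kept their direction and their side of the threshold in 510 of 510 alternatives. These results had been picked as the largest called differences, which favours such an outcome. A required 2-fold change was the setting that lowered counts by more than 1.5 times, because many differences were smaller. It left 86 calls in Baipimai and 84 in Zhoumai18 at 96 h against 0 h. At 48 h it left 31 in Baipimai against Zhoumai18, 59 in Shengsimai against Zhoumai18 and 52 in Baipimai against Shengsimai, and at 96 h it left 73, 91 and 59 in the same order. RLE size factors moved the median log2 difference of all tested genes at 96 h to -0.14 for Baipimai and -0.15 for Shengsimai against Zhoumai18, with 105 and 116 members higher.

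The choice of the 200 genes depended on the scale. With log2(FPKM + 0.1) 96 of the 200 remained, with TPM 166, with TMM-scaled FPKM 137, with medians of replicates 138 and without single libraries 153 to 199, the lowest without replicate 3 of Shengsimai at 96 h. The 10 highest scores stayed among the 200 in all of these.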
